A study of Mus musculus with 16 samples.

Results

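The EGF receptor family and its ligands were described through 9 genes, chosen by symbol and read from the raw count table, out of 52636 gene models. They were the ligands Hbegf, Areg and Tgfa, the receptors Egfr, Erbb2 and Erbb3, and the receptor inhibitors Errfi1, Lrig1 and Lrig3. After removal of ribosomal RNA, 16 libraries were sequenced from CRAFR26, a mouse embryonic stem cell line with a c-RAF kinase construct that 4-hydroxytamoxifen (4OHT) switches on, so that ERK signalling starts without a growth factor. Routine medium held a GSK3 inhibitor, LIF and a MEK inhibitor, and in every group the MEK inhibitor was replaced for 48 h by 250 nM of the FGF receptor inhibitor PD17. The 0h group received nothing further, the 2h and 4h groups received 250 nM 4OHT for 2 h and 4 h, and the rev group received 4OHT for 4 h and then a MEK inhibitor for 2 h. Each group held 4 libraries, from clones 4 and 8 with 2 replicates each. No group was given the vehicle of 4OHT and none was kept for the time of the rev group without a MEK inhibitor, so the effects of 4OHT itself and of the later sampling cannot be told apart from those of the construct and the inhibitor. The labels do not say how the replicates of a clone were raised, and p-values then measure only the spread between these libraries, which may be technical.

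EGF family ligands are made as membrane-bound precursors, are cut free by ADAM proteases, and bind receptors that pair and phosphorylate each other. Hbegf, Areg and Tgfa bind the receptor encoded by Egfr, Erbb3 binds neuregulins and has little kinase activity of its own, and Erbb2 has no known ligand and acts as a partner. The paired receptors switch on the RAS, RAF, MEK and ERK cascade, which the inducible construct enters downstream of the receptors, and ERK targets include ligands and inhibitors of the same family.

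Total counts ran from 2172651 to 12680303 per library (median 6502783), and the 8 most abundant gene models took 42.0% to 80.4% of them. The replicate clone8_2 of the rev group had the highest share, 80.4%, where the other libraries of rev had 55.1% to 65.9%. The changes in rev of the members called there are also given without clone8_2. All 8 embryonic stem cell markers were detected in every group, with summed levels of 1635 to 2312 CPM, the count of a gene scaled by the size of its library. Single markers moved within that sum: Nanog, Klf4 and Tfcp2l1 were called lower at 4h against 0h (Nanog -0.68, adjusted p = 4.03e-09) and higher in rev against 4h. Pou5f1, Sox2 and Zfp42 were called the other way round. Dppa5a had means of 160 CPM at 0h, 135 at 4h and 100 in rev. Esrrb had means of 259, 306 and 302 CPM in these groups, so neither mean was back at its 0h value in rev. The summed level of Dusp6, Egr1, Etv4 and Phlda1, which mark ERK activity, was 26.0 to 42.4 CPM at 0h, 422 to 695 at 2h, 316 to 504 at 4h and 26.6 to 45.2 in rev. Egr1 made up most of that sum at 2h and 4h, with means of 478 and 284 CPM. From 2h to 4h the other means rose, from 30.2 to 55.2 CPM for Dusp6, 24.7 to 49.5 for Etv4 and 13.6 to 15.9 for Phlda1. The genes also differed between 0h and rev, with means of 26.3 and 10.7 CPM for Egr1 and 7.79 and 21.5 CPM for Etv4. The means of Phlda1 were 0.794 and 1.82 CPM, and those of Dusp6 were 1.25 and 1.59. Fibroblast markers summed to between 2.44 and 8.56 CPM, with Postn at 0 in all 16 libraries. Col1a1 had no more than 22 counts in any library. Against 0h it was called higher for 2h (1.57, adjusted p = 0.00603) and rev (1.93, adjusted p = 0.00136), but not for 4h (1.09, adjusted p = 0.0708). Mean Lum, with up to 18 counts, went from 0.0267 CPM at 0h to 1.32 at 4h. Thy1 had the highest mean of these markers in every group, 2.28 (0h), 2.05 (2h), 1.65 (4h) and 2.63 CPM (rev). Its 2h and 4h changes from 0h were not called. Col1a2 and Col3a1 did not exceed 3 and 1 counts in any library. By group, the fibroblast sums were 2.44 to 3.85 (0h), 3.07 to 4.83 (2h), 2.89 to 5.83 (4h) and 3.30 to 8.56 CPM (rev). Primitive endoderm markers summed to between 3.26 and 7.21 CPM. Trophoblast markers also moved with the groups, from 4.34 to 9.51 CPM at 0h to 10.5 to 17.9 at 4h and 9.61 to 16.1 in rev, through Eomes, Cdx2 and Gata3. The part of these markers in the results below was not tested. In bulk RNA, fewer cells that express a gene and less RNA per cell cannot be told apart.

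Of the 3 ligands, only Hbegf passed the filter on low counts. Hbegf, the heparin-binding ligand (ENSMUSG00000024486, GRCm38 chromosome 18, 36504927 to 36515805, minus strand), stood at 0h at 5.16 and 4.33 CPM in clone 4 and at 5.31 and 5.99 CPM in clone 8. At 2h it stood at 9.19 and 8.76 CPM in clone 4 and at 10.2 and 10.4 CPM in clone 8. At 4h it stood at 13.97 and 12.1 CPM in clone 4 and at 15.4 and 14.2 CPM in clone 8. The ranges of these 3 groups did not overlap, and the level was higher at each later time in both clones. In rev, Hbegf stood at 3.84, 3.69 and 3.81 CPM in 3 libraries and at 1.80 CPM, from 4 counts, in clone8_2, all below the lowest 0h library. Hbegf rose 1.87-fold at 2h against 0h (log2 fold change 0.90, SE 0.15, adjusted p = 3.09e-05) and 2.67-fold at 4h against 0h (1.42, SE 0.15, adjusted p = 2.21e-09). It rose further from 2h to 4h (log2 fold change 0.52, SE 0.13, adjusted p = 0.00915), which missed the threshold with library size alone (adjusted p = 0.527) and without the clone covariate (adjusted p = 0.0806). It fell 3.83-fold in rev against 4h (log2 fold change -1.94, SE 0.16, adjusted p = 6.11e-11). Against 0h, the lower level in rev missed the threshold (log2 fold change -0.52, SE 0.20, adjusted p = 0.0522), and without clone4_2 of 4h it was called (-0.53, adjusted p = 0.0487). Without clone8_2 of rev, the Hbegf change against 4h was -1.84 (adjusted p = 1.37e-10) and that against 0h was -0.42 (adjusted p = 0.129).

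The other 2 ligands were at or near the limit of detection. Areg, which encodes amphiregulin (ENSMUSG00000029378, chromosome 5, 91139599 to 91148432, plus strand), had 1 count in 16 libraries, in clone8_1 at 4h. A count of 0 allows up to 3 counts, which is 0.213 to 1.35 CPM at these depths. Tgfa, which encodes transforming growth factor alpha (ENSMUSG00000029999, chromosome 6, 86195223 to 86275719, plus strand), had 55 counts in all, from 0 to 14 per library, with 9 of 16 libraries at 3 counts or fewer. Its levels lay between 0 and 0.994 CPM in all groups, so differences between groups were not detectable at this depth. In the fit without the filter, no comparison between groups was called for Tgfa (adjusted p of 0.656 or more). The exons of Tgfa share 118 bases with an antisense model, Gm43917, and reads there could not be assigned to a strand.

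Of the 3 receptors, Erbb3 was the most abundant and the only one with called changes between groups. Erbb3 (ENSMUSG00000018166, chromosome 10, 128567523 to 128589652, minus strand) stood at 0h at 22.8 and 20.7 CPM in clone 4 and at 31.2 and 34.7 CPM in clone 8. At 2h it stood at 32.9 and 25.8 CPM in clone 4 and at 37.8 and 46.5 CPM in clone 8. At 4h it stood at 34.5 and 38.6 CPM in clone 4 and at 52.4 and 51.3 CPM in clone 8. The 4 libraries of a group overlapped with those of the next time, but within each clone both 4h libraries exceeded both 2h libraries, which exceeded both 0h libraries. In rev, Erbb3 stood at 30.6 and 28.7 CPM in clone 4 and at 42.4 and 40.6 CPM in clone 8, between the 0h and 4h levels of the same clone. Erbb3 rose at 2h (log2 fold change 0.41, SE 0.09, adjusted p = 0.00095) and at 4h against 0h (0.69, SE 0.09, adjusted p = 1.98e-07). It fell in rev against 4h (-0.30, SE 0.09, adjusted p = 0.0157) and was still higher than at 0h (0.39, SE 0.09, adjusted p = 0.00282). The step from 2h to 4h was called at 0.28 (SE 0.08, adjusted p = 0.0358), and the call was lost without any 1 of 5 libraries, which were clone4_2 and clone8_1 of 2h and clone4_2, clone8_1 and clone8_2 of 4h (adjusted p of 0.0557 to 0.192). It was also lost without the filter on low counts (0.25, adjusted p = 0.221), with the share of the 8 most abundant models as a covariate (0.26, adjusted p = 0.0639) and in DESeq2. The call in rev against 4h was lost without clone4_2 of 4h (-0.27, adjusted p = 0.0535) and with the share of the 8 most abundant models as a covariate (-0.25, adjusted p = 0.144). Without the clone covariate, which leaves the clone difference in the error, every Erbb3 call but that at 4h against 0h was lost, and with library size alone those at 2h (0.40, adjusted p = 0.598) and from 2h to 4h (0.39, adjusted p = 0.995) were lost. In rev against 0h, library size alone gave 0.062 (adjusted p = 0.879), so the higher level of Erbb3 there depends on the scaling. Without clone8_2 of rev, the Erbb3 changes were -0.29 against 4h (adjusted p = 0.0319) and 0.39 against 0h (adjusted p = 0.00569).

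Erbb2 (ENSMUSG00000062312, chromosome 11, 98412470 to 98437716, plus strand) was not called in any of the 5 comparisons between groups. It stood at 9.40 to 12.2 CPM at 0h, 10.4 to 17.5 at 2h, 12.2 to 15.3 at 4h and 10.6 to 16.7 in rev, and the groups overlapped. Within each clone, though, both 4h libraries exceeded both 0h libraries. They stood at 14.1 and 12.4 against 12.2 and 9.40 CPM in clone 4, and at 12.2 and 15.3 against 9.65 and 11.5 CPM in clone 8. At 2h against 0h, Erbb2 changed by 0.53 in clone 4 and 0.06 in clone 8, a difference that edgeR did not call (adjusted p = 0.548). Its log2 fold changes against 0h were 0.24 at 2h (SE 0.15, adjusted p = 0.249), 0.33 at 4h (SE 0.15, adjusted p = 0.0912) and 0.35 in rev (SE 0.15, adjusted p = 0.0984). These estimates do not show that Erbb2 stayed level, and without clone4_2 of rev the difference between rev and 0h was called (0.44, adjusted p = 0.0494). With the share of the 8 most abundant models as a covariate, the difference between 4h and 0h was called (0.41, adjusted p = 0.0486). With library size alone the value for rev against 0h was 0.033 (adjusted p = 0.940), and without clone8_2 of rev it was 0.28 (adjusted p = 0.213). Egfr (ENSMUSG00000020122, chromosome 11, 16752203 to 16918158, plus strand) had 140 counts in all, from 2 to 33 per library, and did not pass the filter. Its level was 0.518 to 1.36 CPM in the 8 libraries of clone 4 (median 0.811) and 0.663 to 2.34 CPM in the 8 of clone 8 (median 1.56), with overlapping ranges. In a fit of 31361 genes without the filter, chosen after seeing the data, Egfr was higher in clone 8 (log2 fold change 0.89, SE 0.27, adjusted p = 0.0138), and no comparison between groups was called (-0.63 to 0.08, adjusted p of 0.521 or more).

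Errfi1 was the inhibitor with the largest changes. Errfi1, also known as MIG6, encodes a cytoplasmic protein that binds and blocks the kinase domain of EGF receptors (ENSMUSG00000028967, chromosome 4, 150853919 to 150868892, plus strand). The 250 bases before the start of 7 of the 9 members were read from a RefSeq promoter table (GRCm38.p6, 8 windows, since Errfi1 has 2 starts) and searched on both strands for the letters of motifs bound by factors that ERK signalling reaches. These were TGANTCA for AP-1, CCGGAAGT for ETS factors, GCGTGGGCG for EGR factors, TGACGTCA for the cyclic AMP response element (CRE), and the CArG box of SRF. The start regions of Hbegf and Erbb3 were not analysed here. In the windows read, only the CRE letters were found, in 1 window of Errfi1 and in that of Areg, and both are shown because 1 belongs to a gene with strong changes and the other to a gene with a single count. Each is written 5′ to 3′ on the plus strand, with the CRE letters in capitals.
Errfi1, chr4:150854820-150855069: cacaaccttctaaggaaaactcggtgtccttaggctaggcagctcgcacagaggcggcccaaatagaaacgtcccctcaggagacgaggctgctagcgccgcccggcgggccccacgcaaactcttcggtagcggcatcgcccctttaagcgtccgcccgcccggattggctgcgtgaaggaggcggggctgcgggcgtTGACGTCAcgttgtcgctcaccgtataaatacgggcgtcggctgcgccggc
Areg, chr5:91139349-91139598: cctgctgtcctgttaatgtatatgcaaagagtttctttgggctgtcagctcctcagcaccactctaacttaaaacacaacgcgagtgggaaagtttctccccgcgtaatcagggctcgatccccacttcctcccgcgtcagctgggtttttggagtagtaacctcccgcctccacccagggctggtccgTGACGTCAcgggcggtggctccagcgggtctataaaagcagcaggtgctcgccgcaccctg
The CRE letters begin 51 bases before the start in Errfi1 and 61 bases before it in Areg. In GENCODE M21, the Errfi1 window lies in the first intron of transcript Errfi1-202 and outside the other annotated transcripts of that gene, and the Areg window lies just outside the gene. Of all 32851 windows of this length, 1.55% held the CRE letters, 6.75% the AP-1 letters, 2.88% the ETS letters, 0.536% the EGR letters and 1.47% the CArG box. A match describes the letters only and shows no bound factor.

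Errfi1 stood at 0h at 13.9 and 16.1 CPM in clone 4 and at 9.81 and 12.0 CPM in clone 8. At 2h it stood at 28.6 and 26.3 CPM in clone 4 and at 22.4 and 26.5 CPM in clone 8. At 4h it stood at 38.7 and 40.9 CPM in clone 4 and at 28.7 CPM in both libraries of clone 8. All 2h libraries lay above all 0h libraries, and the lowest 4h library only just exceeded the highest 2h library. In rev, Errfi1 stood at 12.8 and 16.7 CPM in clone 4 and at 14.7 and 13.1 CPM in clone 8, which overlapped with 0h. Errfi1 rose 2.04-fold at 2h (log2 fold change 1.03, SE 0.11, adjusted p = 1.40e-08) and 2.65-fold at 4h against 0h (1.40, SE 0.11, adjusted p = 4.27e-12). It fell 2.45-fold in rev against 4h (log2 fold change -1.29, SE 0.11, adjusted p = 1.56e-10), and the difference between rev and 0h was 0.11 (SE 0.13, adjusted p = 0.592). Without clone8_2 of rev, the change against 4h was -1.30 (adjusted p = 6.38e-10). The step from 2h to 4h was 0.38 (SE 0.10, adjusted p = 0.0141), and its call was lost without clone4_1 or clone8_1 of 2h or clone4_2 of 4h (adjusted p of 0.0561 to 0.0753), with library size alone and without the clone covariate.

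Of the leucine-rich repeat inhibitors, Lrig1 was called higher in rev and Lrig3 was called lower at 4h. Lrig1, which binds ErbB receptors and promotes their degradation (ENSMUSG00000030029, chromosome 6, 94604529 to 94700158, minus strand), stood at 19.7 to 22.9 CPM at 0h, 18.0 to 21.7 at 2h and 19.4 to 22.6 at 4h. In rev it stood at 26.6 and 28.5 CPM in clone 4 and at 25.2 and 27.5 CPM in clone 8, all above every library of the other groups. Lrig1 rose in rev against 4h (log2 fold change 0.36, SE 0.10, adjusted p = 0.00904) and against 0h (0.35, SE 0.10, adjusted p = 0.00862), while its changes at 2h and 4h against 0h were -0.05 and -0.01 (adjusted p = 0.734 and 0.973). With library size alone, without a factor for composition, the rev against 4h value turned to -0.07 (adjusted p = 0.836), as the median of all genes moved to -0.41, so the rise of Lrig1 is relative to the other genes. Its exons share 144 bases with the antisense gene Slc25a26. Without clone8_2 of rev, the Lrig1 change was 0.35 against 4h (adjusted p = 0.0186) and 0.33 against 0h (adjusted p = 0.0226). With library size alone, the value against 0h was 0.038 (adjusted p = 0.927). Without the filter on low counts, neither Lrig1 call was kept (adjusted p = 0.0537 against 4h and 0.0505 against 0h).

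Lrig3, a relative of Lrig1 (ENSMUSG00000020105, chromosome 10, 125966168 to 126015359, plus strand), was the only one of the 6 tested members called lower at 4h against 0h. At 0h it stood at 14.7 and 9.996 CPM in clone 4 and at 17.4 and 17.7 CPM in clone 8. At 4h it stood at 9.02 and 8.88 CPM in clone 4 and at 11.4 and 11.8 CPM in clone 8. Both 4h libraries of a clone lay below both 0h libraries of that clone, although the ranges over both clones overlapped. Lrig3 stood at 8.32 to 13.6 CPM at 2h and at 9.56 to 13.5 CPM in rev. Its log2 fold change was -0.52 at 4h against 0h (SE 0.13, adjusted p = 0.00198) and -0.32 at 2h (SE 0.12, adjusted p = 0.0507), and the 4h call was lost with library size alone (-0.43, adjusted p = 0.358). The values in rev were 0.22 against 4h (SE 0.14, adjusted p = 0.284) and -0.29 against 0h (SE 0.13, adjusted p = 0.0964). Leaving out clone4_2 of 0h brought the 2h and rev differences from 0h past the threshold (-0.42 and -0.41, adjusted p = 0.0134 and 0.0271). The 2h difference also passed it without clone4_1 of rev (adjusted p = 0.0493) and without clone8_2 of rev (adjusted p = 0.047).

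**Figure D1:**
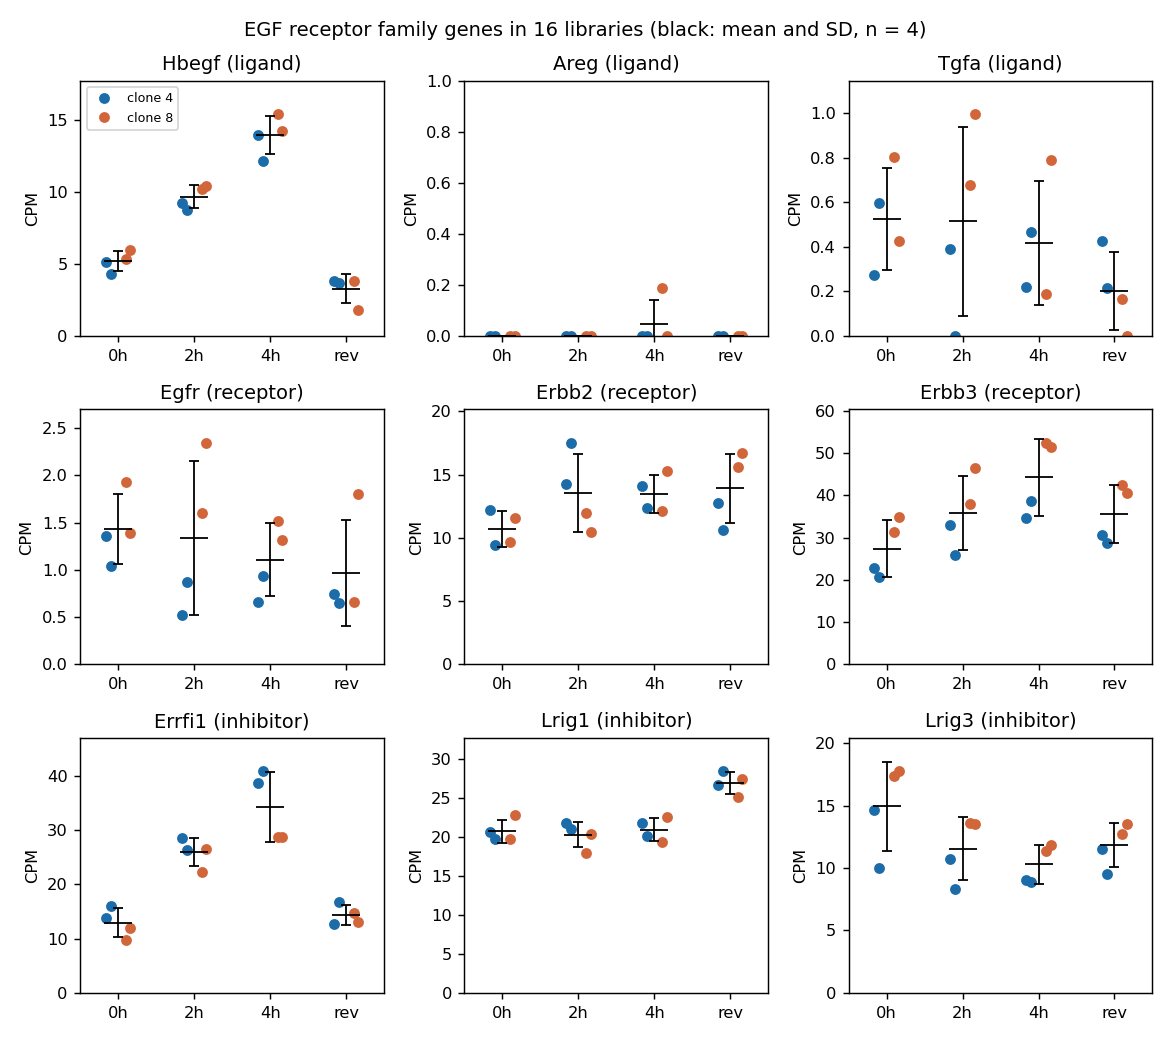
Level of each member in CPM (vertical axis, 1 panel per gene, each with its own scale starting at 0) in the 0h, 2h, 4h and rev groups, 1 point per library with the clones distinguished. Hbegf and Errfi1 climb from 0h to 4h and return in rev, Lrig1 is highest in rev, and Areg, Tgfa and Egfr stay at or below 2.34 CPM.

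Over the 6 members that passed the filter, the counts of calls were as follows, with a call meaning an adjusted p under 0.05 in edgeR's quasi-likelihood test over 12215 genes. At 2h against 0h, 3 members were called higher (Hbegf, Errfi1 and Erbb3) and 0 lower, where 11.4% of all tested genes were higher and 9.68% lower. For that 0, the unadjusted p was under 0.05 for 1 member, Lrig3, and DESeq2 also called 0 lower. Lrig3 was called lower there with the share of the 8 most abundant models as a covariate (-0.34, adjusted p = 0.0407) and without some single libraries, as given above. At 4h against 0h, the same 3 were called higher and Lrig3 lower, where 17.2% of all genes were higher and 16.8% lower. From 2h to 4h, the same 3 members were called higher and 0 lower by edgeR, where 3.8% and 3.52% of all genes were called. No member was lower there at an unadjusted p under 0.05 or by DESeq2, which called 2 members higher, since the Erbb3 step missed its threshold (adjusted p = 0.0569). The comparisons at 2h and 4h share the 0h libraries.

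In rev against 4h, 1 member was called higher (Lrig1) and 3 lower (Hbegf, Errfi1 and Erbb3), where 7.93% of all genes were higher and 8.43% lower. In rev against 0h, 2 members were called higher (Erbb3 and Lrig1) and 0 lower, where 12.4% of all genes were higher and 9.86% lower. For that 0, Hbegf and Lrig3 had an unadjusted p under 0.05 (2 members), and DESeq2 called 0 lower. As a description of the 6 tested members, the median log2 fold change was 0.33 at 2h and 0.51 at 4h against 0h, 0.18 at 4h against 2h, -0.14 in rev against 4h and 0.23 in rev against 0h. The medians over all genes lay between -0.02 and 0.01. Since 3 of the 9 members were not tested, these counts and medians do not stand for the whole family.

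**Figure D2:**
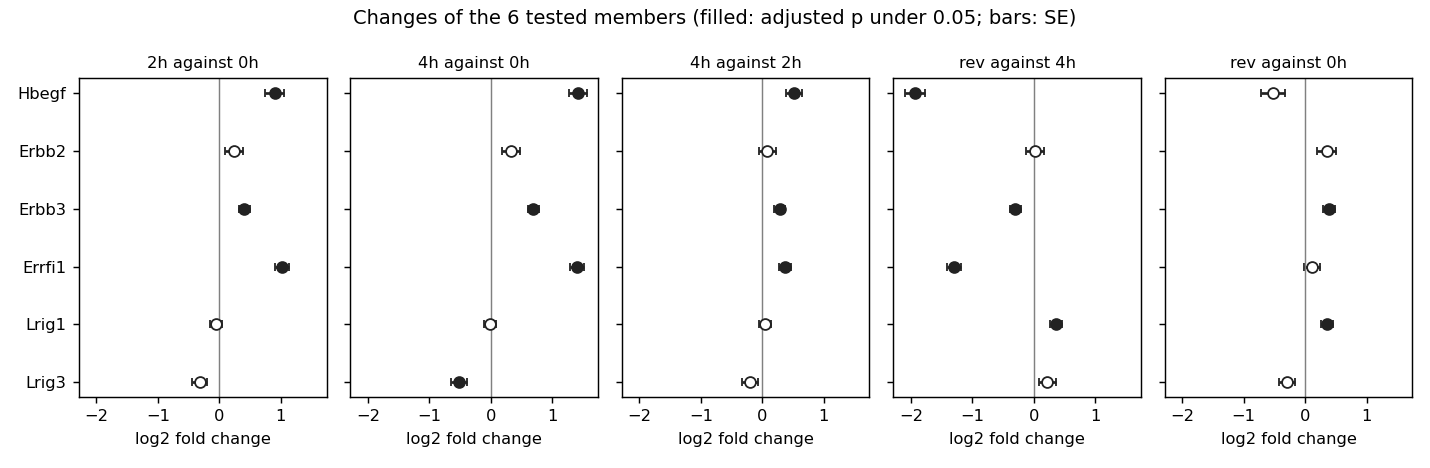
Log2 fold change (horizontal axis) of the 6 tested members in 5 comparisons between groups, with bars of 1 SE from edgeR, and filled points for an adjusted p under 0.05. Hbegf and Errfi1 have the largest values in either direction, from 1.42 at 4h against 0h to -1.94 in rev against 4h.

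The share of the 4h change that was undone in rev was taken per member as the negative ratio of the rev against 4h change to the 4h against 0h change, both of which use the 4h libraries. It was 137% for Hbegf, where more than 100% means an estimate below 0h, a difference that was not called, and 130% without clone8_2 of rev. It was 92.2% for Errfi1, 43.8% for Erbb3 and 42.9% for Lrig3, whose rev against 4h change was not called, and 93.4%, 42.7% and 43.0% without that library. The shares depended on the scaling, and library size alone gave 155% for Hbegf, 110% for Errfi1, 92.1% for Erbb3 and -47.5% for Lrig3, where the minus sign means a level still farther from 0h than at 4h. Fitted in each clone, the share was 119% in clone 4 and 159% in clone 8 for Hbegf, and 38.5% and 48.4% for Erbb3. It was 107% and 73.5% for Errfi1 and 67.2% and 27.5% for Lrig3. These shares were not tested against each other.

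Between genes, levels were compared per kilobase of exon (CPM per kb), as means with the SD over 4 libraries. At 0h Erbb3 stood at 4.55 (SD 1.11), Lrig1 at 3.71 (SD 0.266) and Errfi1 at 3.61 (SD 0.750), and these neighbours did not differ beyond their spread. The order of Erbb3 and Errfi1 depended on the clone, since at 0h Errfi1 (3.87 and 4.50) was above Erbb3 (3.79 and 3.45) in clone 4 and Erbb3 (5.19 and 5.78) was above Errfi1 (2.74 and 3.34) in clone 8. Erbb2 at 2.05 (SD 0.267) and Lrig3 at 1.79 (SD 0.428) formed the next pair, also within their spread, and Hbegf stood at 1.07 (SD 0.141). Egfr, Tgfa and Areg followed at 0.126, 0.0809 and 0, so that the transcript of Egfr was the least abundant of the 3 receptors among the members. At 4h Errfi1 stood at 9.56 (SD 1.81) and Erbb3 at 7.35 (SD 1.496), and the order within each clone was that of 0h, with Errfi1 (10.8 and 11.4) above Erbb3 (5.74 and 6.41) in clone 4 and Erbb3 (8.71 and 8.53) above Errfi1 (8.00 and 8.01) in clone 8. Hbegf at 2.88 (SD 0.276) stood beside Erbb2 at 2.59 (SD 0.282). In rev the means were 5.91 for Erbb3, 4.82 for Lrig1 and 4.00 for Errfi1, and Hbegf, at 0.680 (0.782 without clone8_2), was lower than Lrig3, at 1.42 (1.35 without it).

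**Figure D3:**
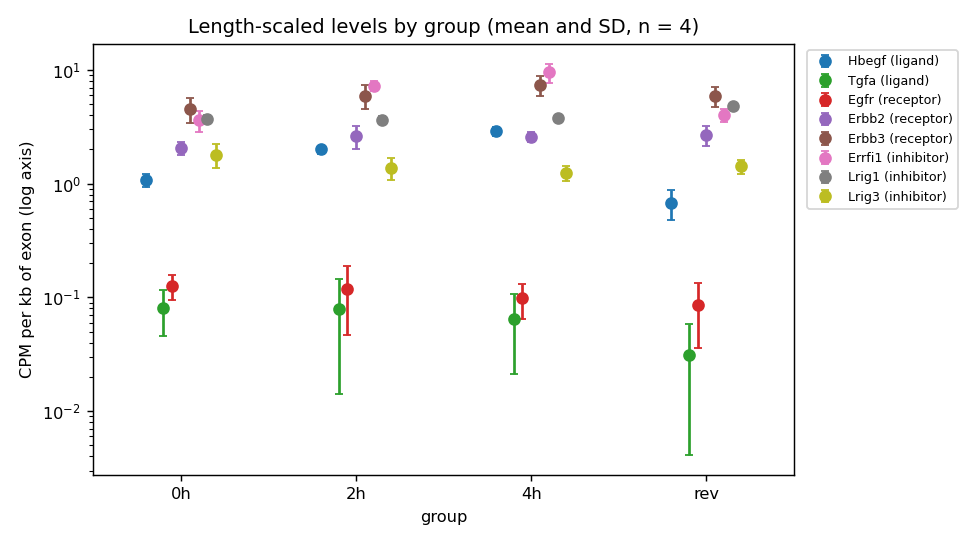
Mean level in CPM per kilobase of exon (vertical axis, log scale) of the members in each group, with bars of 1 SD over 4 libraries. The mean of Errfi1 at 4h is 9.56, above that of Erbb3 through clone 4 alone, and Egfr stays at or below 0.126 in all 4 groups.

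Levels differed between the clones for 3 of the 6 tested members, where 29.1% of all tested genes were called. Over all groups, Erbb3 was higher in clone 8 (log2 fold change 0.52, SE 0.06, adjusted p = 7.22e-08), as was Lrig3 (0.42, SE 0.09, adjusted p = 0.000609), and Errfi1 was lower (-0.30, SE 0.08, adjusted p = 0.00385). With library size alone, the Erbb3 and Lrig3 values were 0.27 and 0.17 and were not called. The responses were then compared between clones by interaction terms in edgeR. No member was called in the responses at 2h and at 4h from the 0h level, in rev from the 4h level or in rev from the 0h level, where 0.0901%, 0.311%, 0.00819% and 0.0573% of all genes were called. At an unadjusted p under 0.05 there were 0, 0, 1 and 0 members, and these differences were not run in DESeq2. The 1 member was Errfi1 in rev against 4h, which changed by -1.48 in clone 4 and -1.01 in clone 8 (difference 0.47, SE 0.22, adjusted p = 0.819). For Hbegf at 4h against 0h the clones gave 1.49 and 1.38, with a difference of -0.11 (SE 0.31), an error wide enough that a sizeable difference could have been missed.

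**Figure D4:**
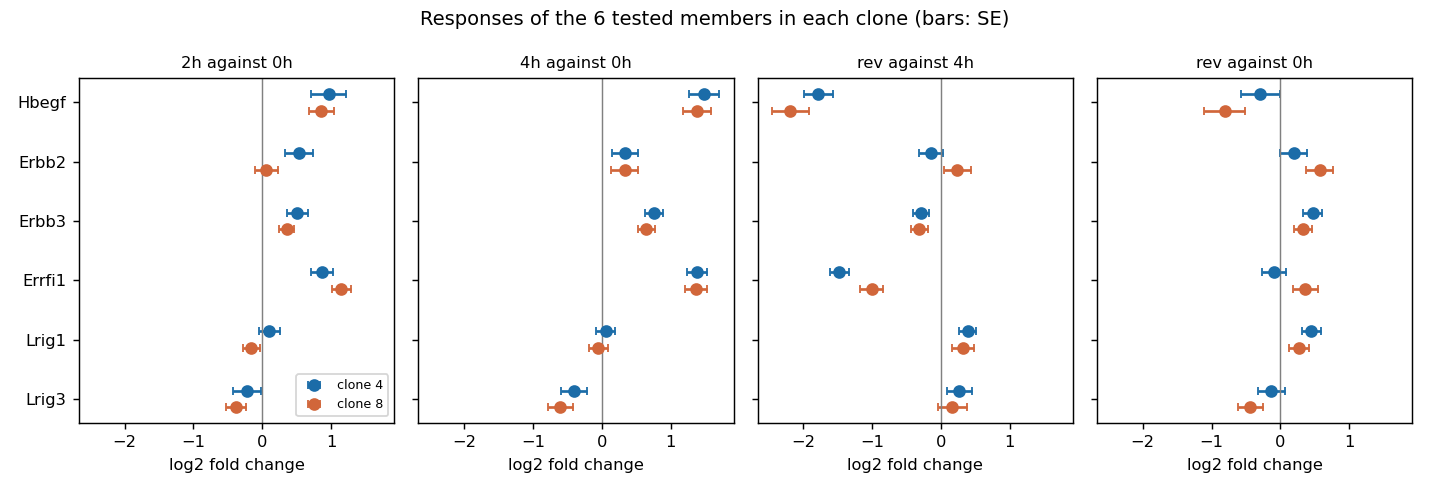
Log2 fold change (horizontal axis) of the 6 tested members in clone 4 and clone 8 in 4 comparisons, with bars of 1 SE. The clones lie close for Hbegf at 4h against 0h, at 1.49 and 1.38, and Errfi1 in rev against 4h shows -1.48 in clone 4 and -1.01 in clone 8.

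Other genes of the pathway were taken from a list of 41 genes by role, of which 33 passed the filter. The 8 that did not included the receptor Erbb4 and the ligands Btc, Ereg, Epgn, Nrg1 and Nrg3. At 2h against 0h, 4 of the 33 were called higher and 3 lower, which together is 21.2% beside 21.1% of all genes. At 4h against 0h, 6 were higher and 3 lower (27.3% beside 33.9%), and from 2h to 4h 3 were higher and 0 lower (9.09% beside 7.32%). In rev against 4h, 0 were higher and 4 lower (12.1% beside 16.4%), and in rev against 0h 3 were higher and 2 lower (15.2% beside 22.3%). These shares lay near or below those of all genes.

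Among ligand release factors, Rhbdf1, which helps to bring the ligand-cutting protease ADAM17 to the cell surface, rose at 2h against 0h (log2 fold change 0.61, SE 0.14, adjusted p = 0.00196) and from 2h to 4h (0.46, SE 0.13, adjusted p = 0.0207). Rhbdf1 was also higher in rev than at 0h (0.75, SE 0.15, adjusted p = 0.00039). Its relative Rhbdf2 fell at 4h against 0h (-0.50, SE 0.14, adjusted p = 0.00542). Among negative regulators, Spry2, a feedback inhibitor of receptor signalling to ERK, rose at 2h (1.07, SE 0.09) and at 4h against 0h (1.19, SE 0.09), fell in rev against 4h (-1.50, SE 0.09) and was lower in rev than at 0h (-0.31, SE 0.10, adjusted p = 0.0292). Socs5, which promotes the degradation of EGF receptors, rose at 4h against 0h (1.36, SE 0.18) and fell in rev against 4h (-1.74, SE 0.20). From 2h to 4h, Socs5 rose by 1.25 on the log2 scale (SE 0.17, adjusted p = 6.68e-06). Lrig2, the third gene of the Lrig family, fell at 2h (-0.47, SE 0.11, adjusted p = 0.00192), and Ptpn1, a phosphatase that acts on receptors, was higher in rev than at 0h (0.34, SE 0.11, adjusted p = 0.0249). Among the others, the adaptor Grb7 fell at 2h (-0.67, SE 0.18, adjusted p = 0.00849), the ligand Nrg4 was lower at 4h than at 0h (-0.82, SE 0.32, adjusted p = 0.047), and the exchange factor Sos2 was lower in rev than at 0h (-0.34, SE 0.12, adjusted p = 0.0343). Nrg4 has exons that overlap an antisense model. Of the calls named here, the Spry2 calls apart from that in rev against 0h, and those of Socs5, held under every setting and without any 1 library, and the others were all lost with library size alone. In rev against 0h, library size alone gave 0.47 for Rhbdf1 (adjusted p = 0.233) and 0.042 for Ptpn1 (adjusted p = 0.921). Without the clone covariate, the calls of Grb7 at 2h (adjusted p = 0.157) and of Rhbdf1 from 2h to 4h (adjusted p = 0.158) were lost. The calls in rev against 0h of Ptpn1 and Spry2 were lost without it (adjusted p = 0.0587 and 0.192) and without the filter on low counts (adjusted p = 0.110 and 0.0698). In rev against 0h, the Spry2 call was lost without any 1 of 6 of the 16 libraries, which were those of 0h and rev other than both clone8_1 (-0.24 to -0.32). The Ptpn1 call was lost without clone4_2 or clone8_1 of 0h or clone4_1 or clone8_2 of rev (0.30 to 0.34), and the Sos2 call without clone8_2 of 0h or clone4_1, clone8_1 or clone8_2 of rev (-0.23 to -0.37). The Rhbdf1 call from 2h to 4h was lost without clone8_1 or clone8_2 of 2h or clone4_2 of 4h, and the Grb7 call without clone8_1 of 2h. The Nrg4 call was lost without any 1 of 12 of the 16 libraries, all but clone8_1 of 0h and of 4h and both clone 4 libraries of rev, and without clone4_1 of 4h it gave -0.49 (adjusted p = 0.278). The Sos2 and Nrg4 calls were lost under 6 and 7 of the 10 other settings, DESeq2 among them.

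The genes whose pattern was most like that of each called member were taken by Pearson's r of log2 CPM over the 16 libraries, among 8645 genes, as a description. They were Dusp11 (0.967), Zfp719 (0.941) and Tiparp (0.932) for Hbegf, and Epha2 (0.964), Spry2 (0.935) and Enc1 (0.934) for Errfi1. For Erbb3 they were Elmsan1 (0.958), Gpc4 (0.957) and Utf1 (0.956), and for Lrig3 they were Prex1 (0.927), Cars (0.926) and Sfmbt2 (0.923). Lrig1 had the weakest likeness, to Brd9 (0.850), Trim8 (0.845) and Bcl9l (0.839). Among the members themselves, the highest r was 0.817, between Hbegf and Errfi1, and the lowest was -0.68, between Errfi1 and Lrig3. All these values share the same libraries, groups and clones.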

How the data were processed

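The authors deposited raw counts of reads for each gene model, which were whole numbers whose sums differed between libraries. Per the submitters' processing notes, bcl2fastq 2.19.1 and STAR 2.5.3a were used with the mouse build mm10. The counting tool, annotation and strand setting are not given in the sources used here. Symbols, positions and exon lengths came from GENCODE M21, which held 52489 of the 52636 identifiers. In R 4.3.3 with edgeR 4.0.16, filterByExpr over the 4 groups kept 12215 genes, and TMM factors ran from 0.463 to 1.47. All 16 libraries entered a quasi-likelihood fit on group plus clone, with two-sided contrasts and Benjamini-Hochberg adjustment over all tested genes at 0.05, and it was tested on simulated data. CPM uses the TMM-scaled library size. The floor was 3 counts and covers counting error only.

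The members and lists were chosen with earlier results of these data known. All 9 members are named. Pathway genes are named where called with a mean of at least 1 CPM, at most 2 per direction and comparison by size of change. The 3 most similar genes (prior count 2, mean of at least 5 CPM) are given for each called member. Alternatives were RLE size factors, library size alone, no filter, a mean of at least 1 CPM, no clone covariate, a replicate block, only the 2 groups compared, DESeq2 1.42.0, removal of the 8 most abundant models, their share as a covariate, and leaving out each library.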

Additional observations from a re-analysis of the deposited data

Results flagged for a closer look

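The members, the pathway genes named above and the share of the 8 most abundant models were looked at in each group, and the other genes of the pathway list were not. In 6 of these 76 groups of 4 libraries, 1 library lay so far from the other 3 that its gap to the nearest of them passed Dixon's 95% critical value for 4 samples, and chance flags about 1 in 20 groups. Among the members, Hbegf in clone8_2 of rev was at 1.80 CPM, from 4 counts, where the other 3 libraries lay between 3.69 and 3.84. Egfr in that library was also at 1.80 CPM, from 4 counts, where the others lay between 0.652 and 0.746. Areg in clone8_1 of 4h was at 0.190 CPM, from 1 count, where the others were at 0. Among the named pathway genes, Rhbdf1 in clone8_2 of rev was at 14.9 CPM, where the others lay between 13.8 and 13.9. Ptpn1 was at 12.5 CPM in clone8_1 of 0h, where the others lay between 15.3 and 15.7, and at 16.1 CPM in clone8_1 of rev, where the others lay between 20.3 and 20.4. The share of the 8 most abundant models was not flagged in any group, and that of clone8_2 of rev, 80.4%, did not pass the critical value.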

How the results depend on the processing

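The Hbegf and Errfi1 calls for 2h and 4h (from 0h) and for rev (from 4h), and the Erbb3 call for 4h from 0h, held under every alternative and without any 1 library, and the cause of the changes below was not tested. With library size alone, the Lrig1 change in rev against 4h turned to -0.071, the members called higher became 0 from 2h to 4h, in rev against 4h, in rev against 0h and between clones, and those called lower at 4h against 0h became 0. The pathway genes called higher became 1 at 2h, 3 at 4h, 1 from 2h to 4h and 0 in rev against 0h, and those called lower became 0 at 2h, at 4h and in rev against 0h. The median of all genes then moved to -0.41 for rev from 4h and to -0.32 for rev from 0h, and the higher share of all calls went from 48.5% to 3.30% and from 55.8% to 10.4%. It also went from 50.6% to 62.9% at 4h against 0h and from 51.9% to 88.0% from 2h to 4h. All calls (higher, lower) were then 204 and 134 at 2h, 554 and 327 at 4h, 88 and 12 from 2h to 4h, 57 and 1671 in rev against 4h and 105 and 905 in rev against 0h, where TMM gave 1390 and 1182, 2098 and 2048, 464 and 430, 969 and 1030, and 1518 and 1204.

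Without the filter, the members called higher were 0 in rev against 4h and 1 in rev against 0h, and the pathway genes in rev against 0h were 1 higher and 0 lower. Without the clone covariate, the members called higher were 0 from 2h to 4h and 1 in rev against 0h, and the pathway genes were 1 lower at 2h, 1 higher from 2h to 4h and 0 lower in rev against 0h. All calls (higher, lower) were then 747 and 462 at 2h, 1459 and 1323 at 4h, 129 and 90 from 2h to 4h, 418 and 463 in rev against 4h and 876 and 576 in rev against 0h. With the share taken by the 8 leading models added to the fit, 1 member was lower at 2h (Lrig3), Erbb2 was called higher at 4h against 0h (0.41, adjusted p = 0.0486), and the pathway genes called lower were 2 in rev from 4h and 1 in rev from 0h. Over all genes, rev from 4h then had 577 calls higher and 652 lower. With only the 2 groups compared, and in DESeq2, 1 pathway gene was lower in rev against 0h. Leaving out 1 library at a time gave 0 to 1 members lower at 2h and in rev against 0h and 1 to 3 higher from 2h to 4h. For the pathway genes it gave 1 to 3 lower at 2h, 1 to 3 higher from 2h to 4h, 0 to 1 higher in rev against 4h, and 1 to 4 higher and 0 to 3 lower in rev against 0h. Over all genes it gave 743 to 1286 lower at 2h, 303 to 510 higher and 260 to 457 lower from 2h to 4h, and 644 to 1026 higher in rev against 4h. Values called in neither fit changed sign 48 times when a library was left out and 13 times under the other settings.

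The residuals of same-numbered libraries correlated at -0.29 to 0.18 in 12 pairs (same clone, other group), with 3 over 0.1, all in clone 8, and the numbers were not taken to pair the samples. With the replicate block, 1 member was called lower at 2h (Lrig3, -0.35, adjusted p = 0.0299) and 1 in rev against 0h (Hbegf, -0.55, adjusted p = 0.0495), and the calls over all genes at 4h against 0h were 2072 higher and 1996 lower. Depth limits Egfr, Tgfa and Areg, whose counts did not exceed 33, 14 and 1 in any library.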
